A study of Mus musculus with 12 samples.

Results

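The genes described here encode splicing factors of the mouse: SR proteins, hnRNPs, the SF3A and SF3B subunits of the U2 snRNP, the Sm core proteins, and further proteins of the U1 and U2 snRNPs. They were chosen by symbol, as every gene of the deposited table whose symbol starts with Srsf, Hnrnp, Sf3a, Sf3b or Snrp. Of 51 matching symbols, 2 were left out because they hold "-ps", which left 49 of 37187 genes. They comprise 11 SR protein genes, 18 hnRNP genes, 3 SF3A genes, 5 SF3B genes, 8 Sm core genes and 4 other U1 and U2 snRNP genes. Related genes with other symbol stems, such as the U1 subunit gene Snrnp70, are not members and are given apart. All 49 members passed the filter on low values, a signal of at least 10 in at least 3 libraries, as did 14045 genes in all.

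RNA was measured in 12 bone marrow libraries of 4 genotypes, with 3 libraries each: Tet2;Traf6 double knockout (dKO), Tet2 KO, Traf6 KO and wild type (WT). All groups were sorted as lineage-negative, Sca-1-positive, CD117 (c-Kit)-positive cells (LSK), a gate for blood stem cells and early multipotent progenitors. The labels give no strain, age, sex, allele, promoter of a Cre or number of animals. Whether the libraries of a genotype stem from different mice is not stated, and the p-values therefore reflect library-to-library spread that could be technical. The title of the series concerns TRAF6 and MYC in acute myeloid leukaemia, and the questions addressed here are how the splicing factor transcripts stood in each knockout against WT and in the dKO against each single knockout.

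Splicing removes introns in the nucleus. The U1 snRNP binds the start of the intron, the U2 snRNP binds the branch site near its end through its SF3A and SF3B subunits, and each of these particles is built on a ring of Sm proteins wrapped around its small nuclear RNA. SR proteins mostly bind exons and promote their inclusion, whereas hnRNPs coat nascent transcripts and often act against inclusion. SF3B1 and SRSF2 are among the genes most often mutated in human myelodysplastic syndromes, and TET2, an enzyme that oxidises methylated cytosine, is commonly mutated in the same diseases.

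The signal of the targeted genes was set against the labels. Tet2 signal was 326, 197 and 261 in the dKO libraries and 668, 403 and 486 in the libraries labelled Tet2 KO, against 525, 783 and 739.6 in WT. Traf6 signal was 799, 1313 and 967 in the dKO libraries and 2474, 854 and 568 in those labelled Traf6 KO, against 1935, 3006 and 2957 in WT. The libraries labelled Tet2 KO replicate 1 and Traf6 KO replicate 1 thus held their targeted transcript within the WT range, and the calls and non-overlap counts against them are given with and without them. In the limma test used below, Tet2 stood at -0.41 on the log2 scale in Tet2 KO against WT (adjusted p = 0.969). Traf6 stood at -1.28 in Traf6 KO against WT (adjusted p = 0.497). In dKO against WT, Tet2 stood at -1.39 (adjusted p = 0.00659) and Traf6 at -1.36 (adjusted p = 0.0278). After a trend on transcript length and GC content was removed, they were at 0.09 (adjusted p = 0.811) and -0.16 (adjusted p = 0.814). The reads per library numbered 22169673 to 53921402, and all 3 dKO and 3 WT libraries held Eif2s3y, a Y-linked transcript, at 2812 to 5669, against at most 55.4 in the other libraries except the library labelled Traf6 KO replicate 1, at 1524, which also held Xist, the RNA of the inactive X chromosome, at 1574. Every comparison other than dKO against WT therefore also sets libraries with Y-linked reads against libraries mostly without them. The c-Kit transcript Kit, a defining marker of the gate, was at 4099 to 11935 in dKO and 44484 to 47837 in WT, while Ly6a, which encodes Sca-1, was at 1968 to 13218 in dKO and 1990 to 2339 in WT. Across all genes, transcripts of up to 1000 nt stood above the WT mean by a median of 0.78, 1.20 and 2.84 on the log2 scale in dKO replicates 1, 2 and 3, and between -0.21 and 0.32 in WT. Transcripts over 4000 nt stood at -0.81, -1.42 and -1.41 in dKO and between -0.13 and 0.08 in WT. In the single knockouts the short transcripts stood at -0.11, 0.19 and 0.24 (Tet2 KO) and 0.31, 0.69 and -0.10 (Traf6 KO). The long ones stood at -0.07, -0.39 and -0.34 in Tet2 KO and -0.08, -0.43 and -0.03 in Traf6 KO. Across genes, the rank correlation of length with change from WT was -0.62 in dKO, -0.37 in Tet2 KO and -0.30 in Traf6 KO. This length trend moves with the results on dKO that follow.

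Between dKO and WT, 23 of the 49 splicing factor genes rose, 5 fell and 21 did not pass the test, which was limma on log2(signal + 1) with an adjusted p under 0.05. Over all genes tested, 21.9% rose and 26.5% fell. The median change of the members was 0.64 on the log2 scale, against -0.09 over all genes. By role, 7 of 8 Sm core genes and 4 of 4 U1 and U2 genes rose, as did 5 of 11 SR genes, 4 of 18 hnRNP genes, 1 of 3 SF3A genes and 2 of 5 SF3B genes. The 5 falls were Sf3b3, Sf3b1, Sf3b2, Sf3a1 and Hnrnpul1. In bulk RNA, fewer cells of a type and less RNA per cell cannot be told apart. The dKO libraries all lay above the WT libraries for 22 members and all below for 5, where 27.9% and 30.5% of all genes did so.

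**Figure D1:**
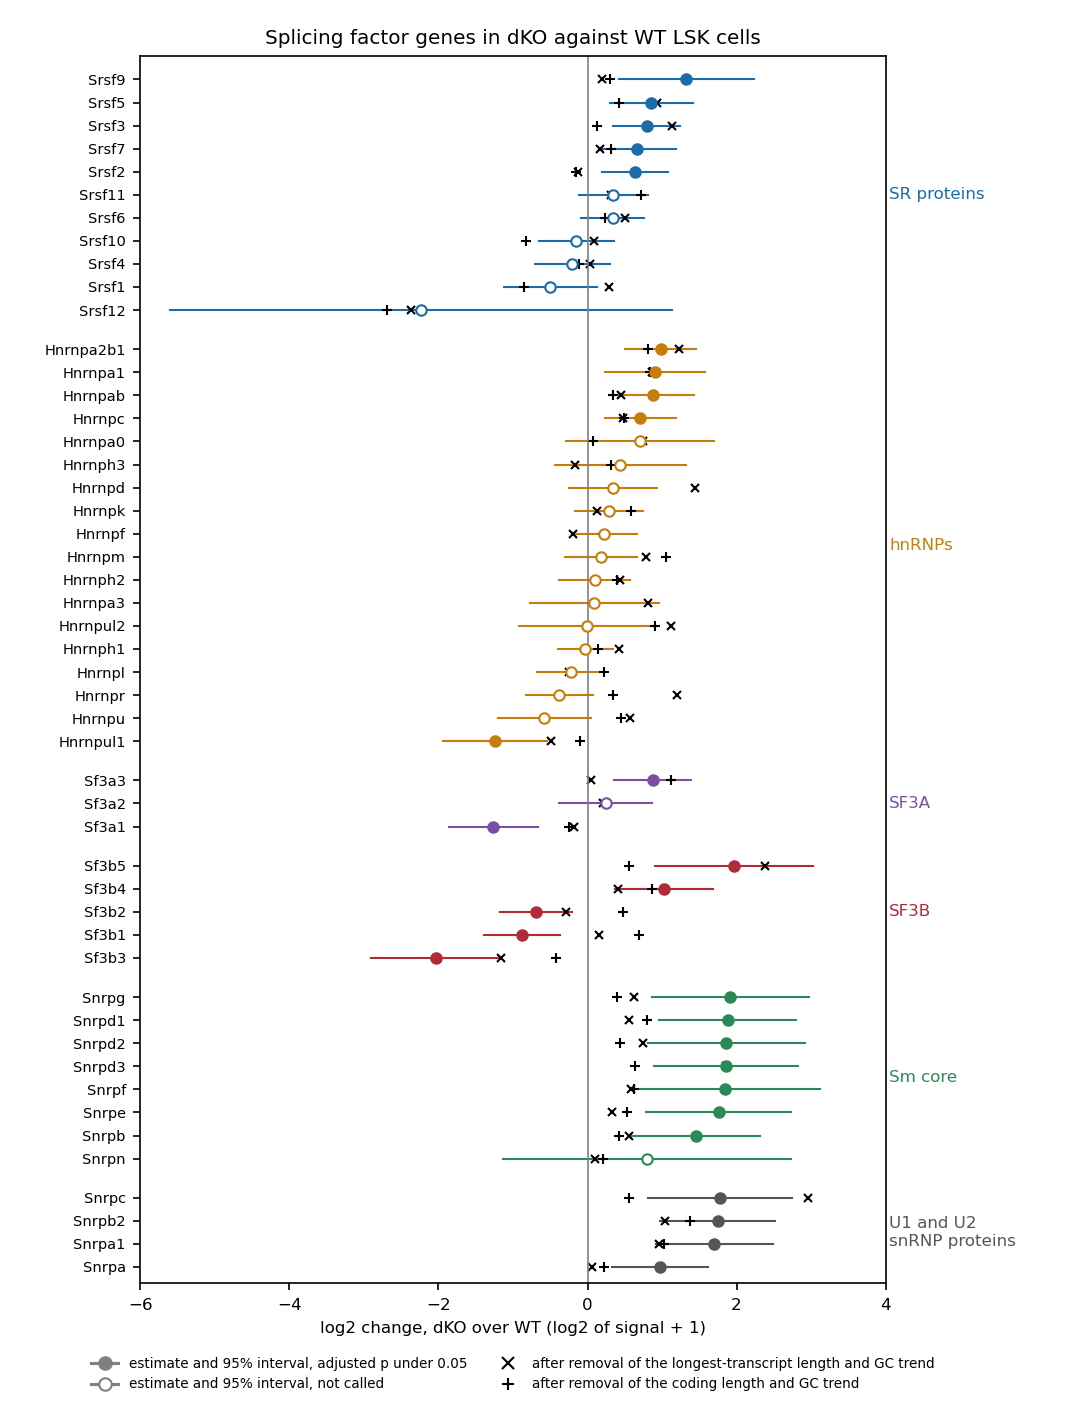
Log2 change of each of the 49 splicing factor genes in dKO over WT, with its 95% confidence interval from limma, grouped by role and ordered by size. Filled circles mark the 28 genes with an adjusted p under 0.05, and crosses and plus signs give the estimates after removal of the trend on transcript or coding length and GC content. All Sm core and U1 and U2 genes lie right of 0, whereas SF3B is split into Sf3b5 and Sf3b4 above 0 and Sf3b2, Sf3b1 and Sf3b3 below it.

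The Sm core proteins form the ring shared by the U1, U2, U4 and U5 particles. Snrpb (chr2:130171414-130179403, minus strand, in the GRCm38 annotation), which encodes SmB and was the most abundant of them per kilobase of transcript in WT, had a signal of 16982, 21335 and 67175 in dKO libraries, 8716, 12894 and 14505 in Tet2 KO, 11291, 14551 and 10499.5 in Traf6 KO and 12048, 10048 and 9819 in WT. Every dKO library lay above every other library, and dKO replicate 3 stood far above the other dKO libraries. The change was 1.45 on the log2 scale (SE 0.40, adjusted p = 0.0105). Snrpd1, which encodes SmD1, had 3341, 4188 and 12687 in dKO, 1236, 1690.2 and 1946 in Tet2 KO, 2064, 3017 and 1508 in Traf6 KO and 1863, 1308 and 1462 in WT. Its dKO libraries again lay above all others, although Traf6 KO replicate 2 came close to dKO replicate 1. In limma this was a log2 change of 1.88 (SE 0.43, adjusted p = 0.00401). Snrpd3, encoding SmD3, had 6918, 8023 and 30665 in dKO against 3753, 3167 and 2979 in WT, with no overlap. Against WT, the dKO change was 1.86 on the log2 scale (SE 0.45, adjusted p = 0.00531).

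Snrpg (SmG) rose by 1.91 on the log2 scale, Snrpd2 (SmD2) by 1.86, Snrpf (SmF) by 1.84 and Snrpe (SmE) by 1.76. These 4 and Snrpb did not pass after a trend on length and GC content was removed from each library, whether on transcript or on coding length. Snrpg was then at 0.62 (adjusted p = 0.0762) and 0.40 (adjusted p = 0.21), Snrpd2 at 0.74 (adjusted p = 0.0504) and 0.44 (adjusted p = 0.103) and Snrpf at 0.58 (adjusted p = 0.286) and 0.62 (adjusted p = 0.22). Snrpe was at 0.33 (adjusted p = 0.156) and 0.53 (adjusted p = 0.0514) and Snrpb at 0.55 (adjusted p = 0.097) and 0.42 (adjusted p = 0.0884). Snrpd1 and Snrpd3 passed after both removals, Snrpd1 at 0.56 (adjusted p = 0.0343) and 0.80 (adjusted p = 0.00994) and Snrpd3 at 1.86 (adjusted p = 0.0107) and 0.64 (adjusted p = 0.0261). Snrpf lost its call without WT replicate 2 or WT replicate 3, and the other 6 Sm genes that rose passed the test with each library left out in turn. The eighth, Snrpn, an imprinted gene known for its expression in brain, had a signal of only 1.9 to 30.4 in any library and did not pass the test. Among the Sm transcripts, ratios were taken only for Snrpd1 to Snrpd2 and Snrpd1 to Snrpb, and these moved less than the levels of those genes. The Snrpd1 to Snrpd2 ratio was 3.4, 3.17 and 2.55 in dKO and 2.8, 2.86 and 3.33 in WT. The Snrpd1 to Snrpb ratio was 0.197, 0.196 and 0.189 in dKO and 0.155, 0.13 and 0.149 in WT, with all dKO ratios above all WT ratios. Together the Sm genes made up 5.94%, 7.65% and 19.1% of the members' signal in the dKO libraries, against 5.25%, 3.79% and 3.50% in the WT libraries.

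The 4 other snRNP genes rose as well. Snrpa1 and Snrpb2 encode the A' and B'' proteins of the U2 particle, which bind each other on the U2 RNA. Snrpa1 was the most abundant of the 4 per kilobase in WT, with a signal of 5885, 6983 and 18705 in dKO, 3078, 3534 and 4367 in Tet2 KO, 4003, 5391 and 3153 in Traf6 KO and 3045, 2749 and 2663 in WT. All libraries of each knockout group lay above all WT libraries, but only the dKO change passed the test. On the log2 scale the dKO change was 1.70 (SE 0.36, adjusted p = 0.00293). Snrpb2 (chr2:143063039-143072853, plus strand) had 2630.4, 3674 and 7656 in dKO, 1165, 1522 and 1625 in Tet2 KO, 1657, 2365 and 1298 in Traf6 KO and 1542, 1096 and 1156 in WT. The change was 1.75 on the log2 scale (SE 0.36, adjusted p = 0.00241). Both U2 genes passed the test under either removal of the length trend, with Snrpb2 at 1.05 (adjusted p = 0.00814) and 1.37 (adjusted p = 0.00268), and Snrpa1 at 0.97 (adjusted p = 0.0138) and 1.03 (adjusted p = 0.00428), for transcript and coding length in that order. Snrpc and Snrpa, which encode the C and A proteins of the U1 particle, rose by 1.78 and 0.98 on the log2 scale. Snrpc was at 2.96 (adjusted p = 0.00221) after the transcript length trend was removed, which used its longest transcript of 6107 nt. Its principal transcript has 984 nt, and it did not pass after the coding length trend was removed, at 0.55 (adjusted p = 0.0637). Snrpa was called no longer without WT replicate 1 or dKO replicate 3, and its change was 0.06 (adjusted p = 0.838) after the transcript length trend was removed. Near-identical genes (at least 95% identity over at least 80% of the coding length) are annotated for 19 members, among them Snrpa, Snrpc and 6 of the Sm genes, and how reads were split among such copies is not given in the sources used here.

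**Figure D2:**
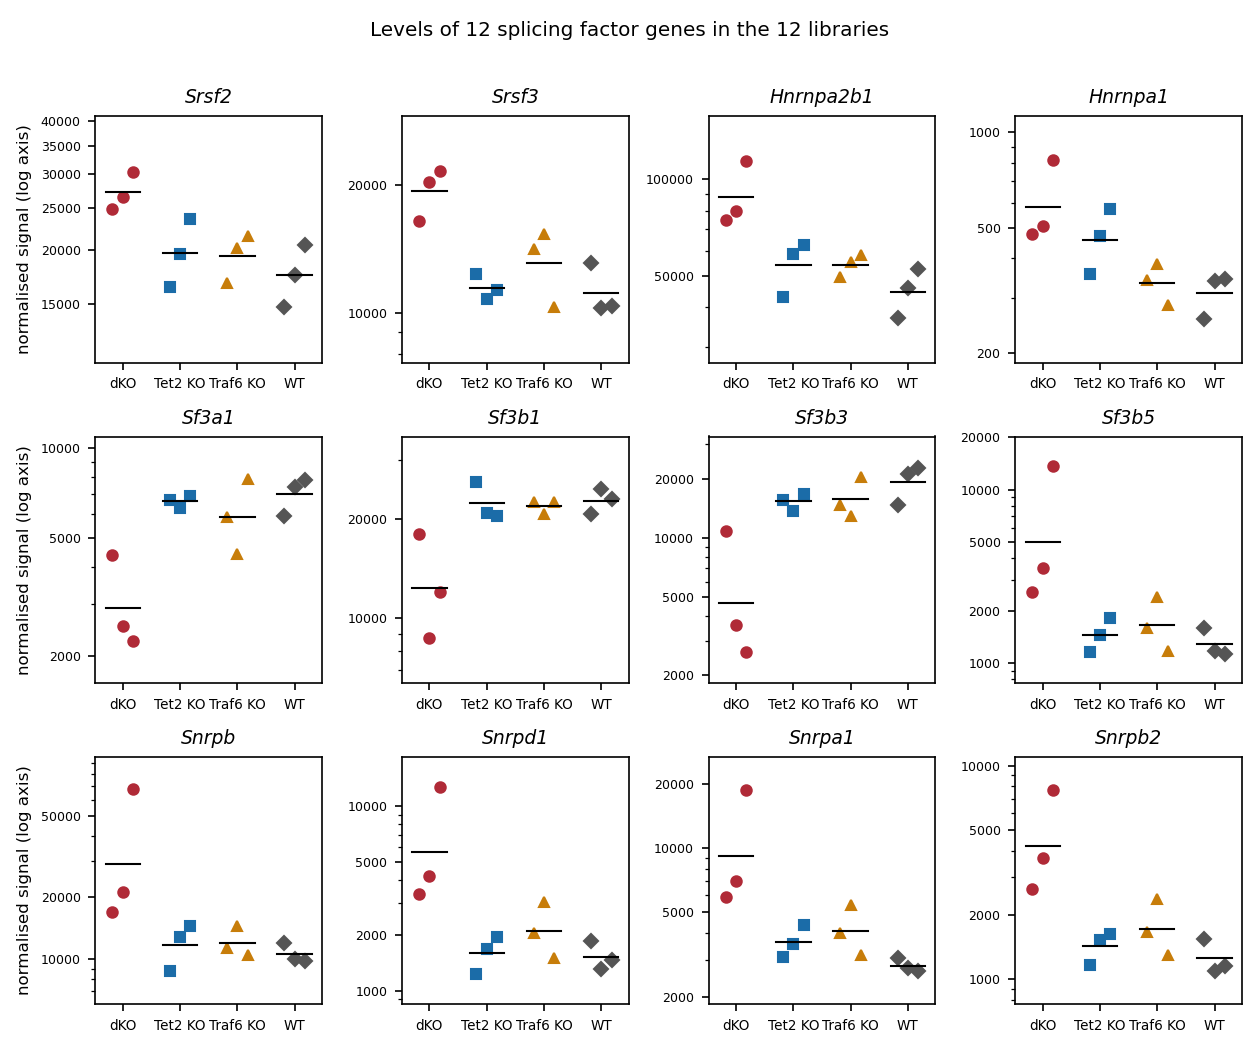
Normalised signal (log axis) of 12 splicing factor genes in every library, with dKO, Tet2 KO, Traf6 KO and WT from left to right and a bar at the geometric mean of each group's 3 libraries. The dKO libraries lie above the WT libraries for Srsf2, Srsf3, Hnrnpa2b1, Hnrnpa1, Sf3b5, Snrpb, Snrpd1, Snrpa1 and Snrpb2, and below them for Sf3a1, Sf3b1 and Sf3b3.

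Sequences just before the start of snRNP genes are shown because the series concerns MYC and 11 of the 12 Sm core, U1 and U2 genes rose. Over all genes 21.9% rose in dKO against WT. The median change was 1.54 for all genes with coding sequences up to 300 nt and 1.27 for those of 300 to 600 nt. Promoters were read as the 250 bases before each RefSeq start (GRCm38.p6), which were found for 44 of 49 members. None was found for Snrpb, Snrpd1, Sf3b4, Sf3b5 and Hnrnpul2. A gene with several starts was counted as holding a motif if any of its starts did. The motifs searched were CACGTG, the palindromic E-box bound by MYC and MAX, and CCGGAA, the core of ETS factor sites, on both strands (CCGGAA or TTCCGG); neither contains the other. In the lines below the capitals mark those motifs, and each sequence runs 5′ to 3′ on the strand of its gene. Every sequence shown holds a motif, whereas Snrpa1, Snrpd2 and Snrpf, which also rose, hold neither and are not shown. Snrpa (chr7:27196272-27196521, minus strand) holds CACGTG in 2 places, Snrpb2 (chr2:143062819-143063068, plus strand) and Snrpd3 (chr10:75517792-75518041, plus strand) hold the ETS core in 2 places, and Sf3b3 (chr8:110846804-110847053, minus strand), the member with the largest called fall, holds it in 1 place.
Snrpa: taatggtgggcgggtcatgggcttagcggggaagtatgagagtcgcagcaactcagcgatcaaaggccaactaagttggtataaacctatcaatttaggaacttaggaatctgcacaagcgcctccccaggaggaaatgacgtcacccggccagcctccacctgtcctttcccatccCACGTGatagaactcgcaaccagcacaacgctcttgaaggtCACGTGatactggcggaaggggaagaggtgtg
Snrpb2: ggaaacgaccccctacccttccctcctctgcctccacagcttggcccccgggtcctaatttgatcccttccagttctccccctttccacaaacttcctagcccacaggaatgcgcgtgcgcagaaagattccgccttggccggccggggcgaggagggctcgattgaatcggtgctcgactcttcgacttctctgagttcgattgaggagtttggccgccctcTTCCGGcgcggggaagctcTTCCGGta
Snrpd3: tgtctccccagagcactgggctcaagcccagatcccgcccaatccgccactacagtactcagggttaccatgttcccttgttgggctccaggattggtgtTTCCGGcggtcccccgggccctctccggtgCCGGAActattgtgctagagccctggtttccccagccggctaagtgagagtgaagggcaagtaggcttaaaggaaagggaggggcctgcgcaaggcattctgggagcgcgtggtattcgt
Sf3b3: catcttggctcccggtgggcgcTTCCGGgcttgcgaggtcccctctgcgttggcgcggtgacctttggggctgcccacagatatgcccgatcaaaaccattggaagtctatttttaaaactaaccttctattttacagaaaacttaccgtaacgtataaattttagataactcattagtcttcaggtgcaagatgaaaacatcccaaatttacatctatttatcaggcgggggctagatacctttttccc

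CACGTG stood in the promoters of 4 of 44 members (9.09%), namely Snrpa, Hnrnpa3, Hnrnpd and Hnrnpf, and in 9.77% of 9433 tested genes and 6.86% of 27025 genes with a promoter. The members' share is thus near that of the genes tested. The ETS core stood in 22 of 44 members (50%), against 24.7% of the tested genes and 13.6% of all genes with a promoter. It was present in 4 of 6 Sm genes, 2 of 4 U1 and U2 genes, 3 of 3 SF3A genes, 2 of 3 SF3B genes, 6 of 11 SR genes and 5 of 17 hnRNP genes. The Sm genes with it include the barely detected Snrpn, before only 1 of its starts. The motif holds a CG, and members' promoters held more of them: the median count of CG was 20.5 in members, 17 in tested genes and 6 in all genes. The part of that difference in the motif's share was not tested. Rising and falling members both hold it, as the promoters of Snrpb2 and Sf3b3 show, and a match describes letters in the window, not binding.

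The SF3 subunits of the U2 snRNP did not move as a block. Sf3b1 (chr1:54985169-55027481, minus strand) encodes the scaffold of SF3B that clamps the branch site, and its signal was 17919, 8740.2 and 12053 in dKO, 25786, 20859 and 20434 in Tet2 KO, 22476, 20707 and 22493 in Traf6 KO and 20618, 24659 and 22897 in WT. Every dKO library lay below every other library, with dKO replicate 1 the nearest to them. In limma this was a log2 change of -0.87 (SE 0.24, adjusted p = 0.00948). Its direction depended on the length correction: the change was 0.16 (adjusted p = 0.494) after the transcript length trend was removed and 0.69 (adjusted p = 0.00806), called higher, after the coding length trend was removed. Sf3b3 (chr8:110810239-110846787, minus strand), a large subunit that packs against Sf3b1, had the largest called fall, with 10839.6, 3608 and 2631 in dKO, 15666, 13772 and 16789 in Tet2 KO, 14688, 12915 and 20419 in Traf6 KO and 14713, 21172 and 22701 in WT. Against WT, the dKO change was -2.03 on the log2 scale (SE 0.41, adjusted p = 0.0021). The fall was -1.15 (adjusted p = 0.0112) after the transcript length trend was removed and did not pass after the coding length trend was removed, where the change was -0.42 (adjusted p = 0.253).

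The small subunits went the other way. Sf3b5, a 258-nt coding sequence, had a signal of 2576, 3501 and 13731 in dKO, 1149, 1450.2 and 1822 in Tet2 KO, 1592, 2391 and 1169 in Traf6 KO and 1594, 1169 and 1119 in WT. The dKO libraries lay above all others, with dKO replicate 3 far above the other dKO libraries. On the log2 scale the dKO change was 1.96 (SE 0.49, adjusted p = 0.00664). The Sf3b5 to Sf3b3 signal ratio was 0.238, 0.97 and 5.22 in dKO and 0.108, 0.0552 and 0.0493 in WT. Sf3b4, which contacts RNA beside the branch site, rose by 1.03, and Sf3b2, the most abundant SF3B gene per kilobase in WT, fell by 0.69. Sf3b4 lost its call without WT replicate 1, and Sf3b2 without WT replicate 2, WT replicate 3 or dKO replicate 2. Sf3b2 also turned to 0.48 (adjusted p = 0.0426) after the coding length trend was removed.

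SF3A links SF3B to the rest of the U2 particle. Sf3a1 had a signal of 4371, 2525 and 2248 in dKO, 6691, 6319.5 and 6908 in Tet2 KO, 5874, 4409 and 7909.7 in Traf6 KO and 5913, 7414 and 7837 in WT. The dKO libraries lay below all others, although Traf6 KO replicate 2 almost met dKO replicate 1. The change was -1.26 on the log2 scale (SE 0.28, adjusted p = 0.00337). After the transcript length trend was removed the change was -0.18 (adjusted p = 0.436). Sf3a3, the most abundant SF3A gene per kilobase in WT, had 9411, 9683 and 12716 in dKO, 4713, 8180.1 and 8369 in Tet2 KO, 6041, 7197 and 6669.8 in Traf6 KO and 5085, 6154 and 5987 in WT. In limma this was a log2 change of 0.88 (SE 0.24, adjusted p = 0.0101). It was 0.04 (adjusted p = 0.9) and 1.12 (adjusted p = 0.00325) after removal of the transcript and the coding length trend. Sf3a2 did not pass the test, at 0.24.

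Among the SR proteins, 5 of 11 rose in dKO against WT and none fell. Srsf2 (chr11:116849901-116853094, minus strand), the most abundant SR gene per kilobase in WT, had a signal of 24922, 26642 and 30448 in dKO, 16380.2, 19533 and 23689.7 in Tet2 KO, 16724, 20254 and 21626 in Traf6 KO and 14721, 17544 and 20603 in WT. The dKO libraries lay above all others, and no dKO library stood far from the other dKO libraries. Against WT, the dKO change was 0.64 on the log2 scale (SE 0.21, adjusted p = 0.021). The call was lost without WT replicate 1 or WT replicate 2, and the change was -0.13 (adjusted p = 0.656) and -0.16 (adjusted p = 0.617) after removal of the transcript and the coding length trend. Srsf3, the smallest SR protein, had 16464, 20364 and 21584 in dKO, 12359.5, 10796 and 11303 in Tet2 KO, 14165, 15343 and 10306 in Traf6 KO and 13081, 10271 and 10347 in WT. On the log2 scale the dKO change was 0.79 (SE 0.21, adjusted p = 0.00787). Srsf3 was the only called SR gene that passed with each library left out, and its change was 1.14 (adjusted p = 0.00274) after the transcript length trend and 0.12 (adjusted p = 0.584) after the coding length trend.

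Srsf9 rose by 1.33 and Srsf5 by 0.85 on the log2 scale, and Srsf7 by 0.67 although its dKO and WT libraries overlapped. Srsf9 rested most on dKO replicate 3, at 21532 against 5105 and 7136 in the other dKO libraries and 3599.6 to 3797 in WT. These 3 calls were lost when certain libraries were left out, for Srsf5 WT replicate 2, WT replicate 3 or dKO replicate 2, for Srsf7 any of those or dKO replicate 3, and for Srsf9 WT replicate 2 or dKO replicate 3. The remaining SR genes did not pass as deposited, with changes of 0.34 for Srsf6, 0.35 for Srsf11, -0.15 for Srsf10, -0.21 for Srsf4 and -0.50 for Srsf1, the founding member of the family. Srsf6 was called higher after removal of the transcript length trend alone, at 0.50 (adjusted p = 0.0303). With the coding length trend alone removed, Srsf11 was called higher at 0.71 (adjusted p = 0.026) and Srsf10 lower at -0.82 (adjusted p = 0.0476). Srsf12 was barely detected, at 33.8, 0 and 5.36 in dKO and 29.1, 112 and 5.77 in WT.

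As deposited, 13 of 18 hnRNP genes did not pass in dKO against WT. Hnrnpa2b1 (chr6:51460932-51469894, minus strand), the most abundant member of all per kilobase in WT, had a signal of 74677, 79629 and 114545 in dKO, 42974, 58677 and 62568 in Tet2 KO, 49844, 55250.3 and 58152 in Traf6 KO and 36934, 45810.0 and 52444 in WT. The dKO libraries lay above all others. The change was 0.98 on the log2 scale (SE 0.22, adjusted p = 0.00382). It passed with each library left out and after removal of either length trend, at 1.23 (adjusted p = 0.00427) and 0.82 (adjusted p = 0.00944). Hnrnpa1, a paralogue that also represses exon inclusion, was listed at only 478, 506 and 819 in dKO, 355, 469 and 572 in Tet2 KO, 342, 383 and 284 in Traf6 KO and 257, 339 and 344 in WT. In limma this was a log2 change of 0.90 (SE 0.31, adjusted p = 0.0293). It was called after either length trend was removed, but not without any 1 of the WT libraries or without dKO replicate 3. Hnrnpa1 has 1 near-identical annotated gene and its level is therefore uncertain, as is that of Hnrnpa3, with 19 such genes.

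Hnrnpab rose by 0.88 and Hnrnpc, a core protein of hnRNP particles, by 0.71. Hnrnpab was not called without WT replicate 1, nor Hnrnpc without WT replicate 2, WT replicate 3 or dKO replicate 2. Hnrnpul1 was the only hnRNP gene that fell, with 3481, 2238 and 1374 in dKO against 3810.3, 6126 and 6028 in WT. Against WT, the dKO change was -1.24 on the log2 scale (SE 0.32, adjusted p = 0.008). Its change did not pass after removal of the transcript length trend, at -0.50 (adjusted p = 0.108). The other 13 did not pass, among them the abundant genes Hnrnpk at 0.29 and Hnrnpu, which binds scaffold regions of chromatin, at -0.58. Hnrnpm did not pass as deposited, at 0.18, but was called higher after removal of the transcript length trend, at 0.78 (adjusted p = 0.0141), and of the coding length trend, at 1.06 (adjusted p = 0.00428). The rest, Hnrnpa0, Hnrnpa3, Hnrnpd, Hnrnpf, Hnrnph1, Hnrnph2, Hnrnph3, Hnrnpl, Hnrnpr and Hnrnpul2, had changes between -0.38 and 0.70 as deposited. Of these, Hnrnpd and Hnrnpr were called higher after removal of the transcript length trend alone. They were then at 1.44 (adjusted p = 0.00626) and 1.21 (adjusted p = 0.00822). Hnrnpk was called higher after removal of the coding length trend alone, at 0.58 (adjusted p = 0.0233).

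Coding length ordered the members' changes in dKO against WT. The rank correlation of change with coding length was -0.77 over the 49 members and -0.62 over 12659 genes, a description across genes that share the same libraries. The 4 members with coding sequences up to 300 nt, Sf3b5, Snrpe, Snrpf and Snrpg, had a median change of 1.88, against 1.54 for all 261 genes of that length. The 6 members of 300 to 600 nt had 1.82 against 1.27 over all genes, the 20 of 600 to 1200 nt 0.75 against 0.54, and the 15 of 1200 to 2400 nt 0.10 against -0.43. The 4 above 2400 nt, Hnrnpul1, Sf3b1, Sf3b2 and Sf3b3, had -1.06 against -1.58. In each of the 5 classes the members' median lay above that of all genes of the class. In the SF3 complexes the called falls lie in the members with the longest coding sequences. These are Sf3a1, Sf3b1, Sf3b2 and Sf3b3, with 2373, 3912, 2634 and 3651 nt. The size of the fall did not follow length among them, with Sf3b1 at -0.87, Sf3b3 at -2.03 and Sf3a1 at -1.26.

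**Figure D3:**
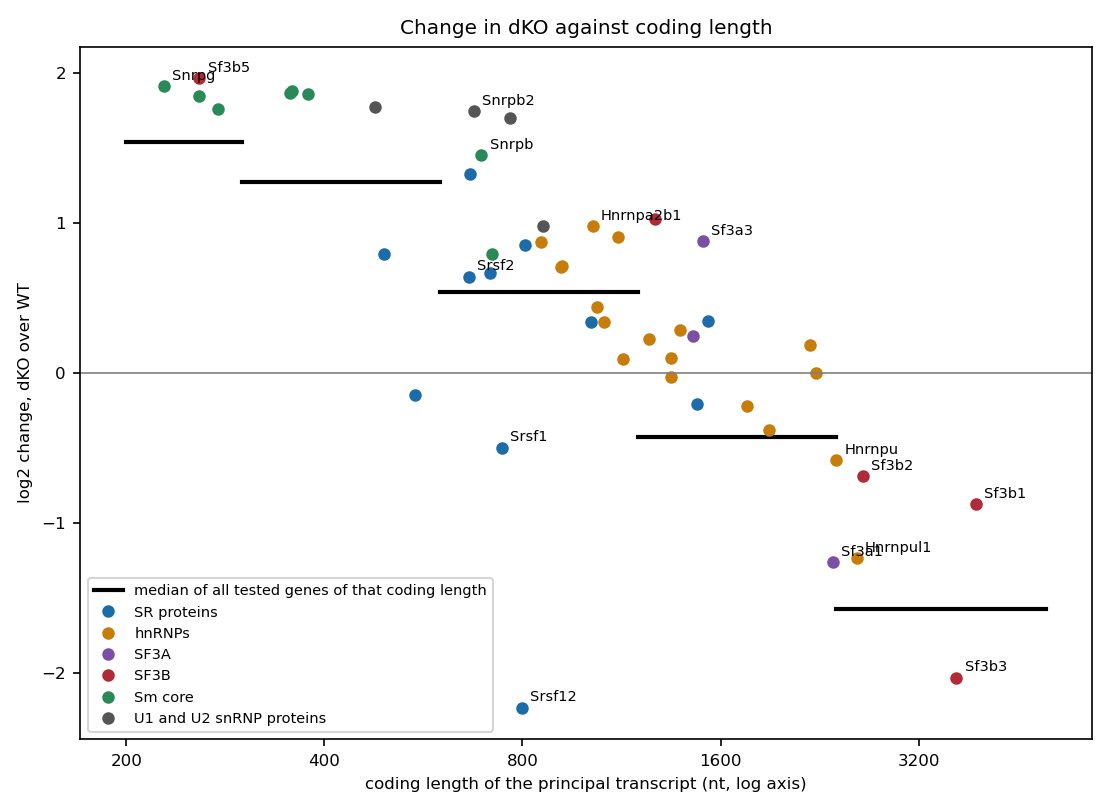
Log2 change in dKO over WT of each of the 49 members against the coding length of its principal transcript (log axis), coloured by role, with horizontal bars at the median of all tested genes in 5 classes of coding length. Changes run from near 2 for the shortest coding sequences to -2.03 for Sf3b3, and the barely detected Srsf12 lies farthest below the bar of its class.

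Once a trend on transcript length and GC content was removed from every library, 14 members rose and 1, Sf3b3, fell between dKO and WT, where 15.6% and 13.9% of 13678 genes did. The median of the members was then 0.44, against -0.04 over all genes. With coding length in place of transcript length, 15 members rose and 1, Srsf10, fell, where 18.7% and 17.1% of 12659 genes did. Of the 28 members called as deposited, 11 were called in the same direction after the first removal, 10 after the second and 7 after both. Those 7 were Snrpb2, Snrpa1, Snrpd1, Snrpd3, Sf3b5, Hnrnpa2b1 and Hnrnpa1. A further 4, Sf3b3, Snrpc, Srsf3 and Srsf5, passed after the first removal alone, and 3, Hnrnpc, Sf3a3 and Sf3b4, after the second alone. Among the Sm genes the change shrank to a median of 0.57 after the first removal and 0.49 after the second, against 1.85 as deposited, with 2 of 8 called after each. By contrast the hnRNP genes stood at a median of 0.52 and 0.34, against 0.20 as deposited.

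The median of each role in each library shows how far the dKO libraries differed among themselves. Relative to the mean of the WT libraries, the Sm core median was 0.95, 1.33 and 3.09 on the log2 scale in dKO replicates 1, 2 and 3, and between -0.13 and 0.33 in WT. The SF3B median was -0.29, -1.01 and -0.77 in dKO and between -0.18 and 0.14 in WT. The hnRNP medians were close together, at 0.19, 0.23 and 0.27 in dKO and -0.24 to 0.16 in WT. In Traf6 KO the Sm core median was 0.81 in replicate 2, 0.21 in the library labelled replicate 1 and -0.05 in replicate 3. Without dKO replicate 3, 21 members rose and 5 fell against WT, where 17.8% and 24.1% of all genes did. Of the 23 rises 19 were kept, those of Hnrnpa1, Snrpa, Srsf7 and Srsf9 were lost, and Hnrnpk and Srsf6 were called in addition. Without dKO replicate 1, 24 rose and 8 fell, where 25.6% and 30.0% of all genes did.

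**Figure D4:**
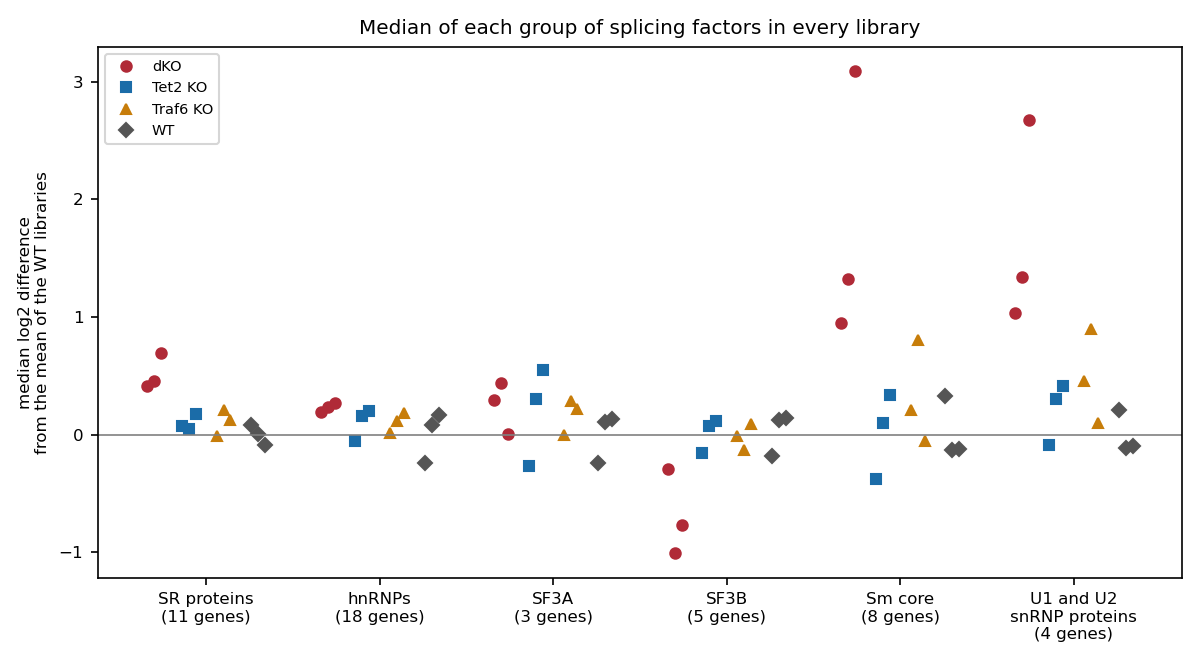
Median log2 difference from the mean of the WT libraries over the genes of each role, 1 point per library, with dKO, Tet2 KO, Traf6 KO and WT from left to right within each role. The Sm core and the U1 and U2 proteins stand highest in dKO, up to 3.09 and 2.67 in replicate 3, and SF3B is the only role whose dKO medians all lie below 0.

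No member passed the limma test against WT in either single knockout. In Tet2 KO 0 of 49 members passed, 0 had an unadjusted p under 0.05 against 8.44% of all genes, and edgeR and DESeq2 on the recovered reads also called 0. Over all genes 0.107% rose and 0.306% fell. Changes of members ran from -0.87 (Snrpn) to 0.55 (Hnrnpa1), with a median of 0.13 against 0.02 over all genes. The libraries labelled Tet2 KO lay above all WT libraries for Hnrnpa1, Hnrnph1 and Snrpa1, where 8.07% of all genes did so. Without the library labelled Tet2 KO replicate 1, 18 members lay wholly above WT and 0 below, where 21.9% and 21.8% of all genes did so, and 0 passed the test. Those 18 included Hnrnpa2b1, Hnrnpm, Sf3a3 and Snrpb. The 95% interval for Srsf2 was -0.27 to 0.61 and for Sf3b1 -0.54 to 0.48, which are the bounds that this number of libraries gives.

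In Traf6 KO against WT 0 of 49 members passed, 0 had an unadjusted p under 0.05 against 7.80% of all genes, and edgeR and DESeq2 called 0. Over all genes 0.0783% rose and 0.192% fell. Changes ran from -1.06 (Srsf12) to 0.54 (Srsf5), with a median of 0.15 against -0.03 over all genes. Libraries labelled Traf6 KO lay above all WT libraries for Hnrnpf, Hnrnpk, Hnrnpl, Snrpa1, Snrpf and Srsf6 and below them for Hnrnph3, where 9.68% and 11.04% of all genes did so. Without the library labelled Traf6 KO replicate 1, 12 members lay above and 2 below, where 15.3% and 18.2% of all genes did so, and 0 passed the test. Hnrnpk, which binds C-rich RNA, had 40055, 41340.0 and 34076 in Traf6 KO against 30733, 28505 and 29688 in WT, at 0.37 on the log2 scale with an adjusted p of 0.73. Snrpa1 stood at 0.54 with an adjusted p of 0.774. The 95% interval for Srsf2 was -0.29 to 0.60 and for Sf3b1 -0.56 to 0.46.

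Between dKO and Tet2 KO, 14 members rose and 5 fell, where 15.5% and 19.9% of all genes did. The largest rises were those of Snrpg at 2.04, Snrpd2 at 1.95, Snrpf at 1.86, Snrpe at 1.83, Snrpd1 at 1.82 and Sf3b5 at 1.78. The falls were Sf3b3 at -1.71, Sf3a1 at -1.19, Hnrnpul1 at -0.97, Sf3b1 at -0.85 and Sf3b2 at -0.71. This count rests on the library labelled Tet2 KO replicate 1: without it 0 members were called in either direction, where 1.49% of all genes rose and 4.77% fell. When these groups were fitted alone 0 members were called, where 0.114% and 0.057% of all genes were. After the transcript length trend was removed, 8 rose and 1 fell, where 8.99% and 7.32% of genes did.

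Between dKO and Traf6 KO, 16 members rose and 6 fell, where 17.3% and 20.7% of all genes did. The largest rises were those of Sf3b5 at 1.60, Snrpd2 at 1.58, Snrpg at 1.47, Snrpd3 at 1.45, Snrpd1 at 1.41 and Snrpe at 1.39. The falls were Sf3b3 at -1.74, Hnrnpul1 at -1.27, Sf3a1 at -1.01, Sf3b1 at -0.82, Sf3b2 at -0.78 and Hnrnpl at -0.58. Without the library labelled Traf6 KO replicate 1, 0 rose and 2 fell, where 3.73% and 12.7% of all genes did. Without Traf6 KO replicate 3, 0 rose and 1 fell, against 3.11% and 11.7% of all genes, and without dKO replicate 3, 1 rose and 5 fell, against 6.13% and 16.3%. Fitted alone, these groups gave 0 calls among the members, where 0.555% and 6.35% of all genes were called. Only Sf3b3 was called with every library left out in turn. After the transcript length trend was removed, 5 rose and 2 fell, where 10.4% and 9.14% of genes did. The comparisons of dKO share their dKO libraries, and are given side by side for that reason.

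The interaction asks whether the dKO differs from the sum of the changes in Tet2 KO and Traf6 KO. No member passed in limma, edgeR or DESeq2 (0 higher, 0 lower), and over all genes 0.107% were higher and 0.114% lower. An unadjusted p under 0.05 was found for 10 of 49 members (20.4%), near the 18.6% of all genes. The 10 were Snrpd2 at 1.66, Snrpg at 1.60, Snrpe at 1.45, Snrpd1 at 1.35, Snrpb2 at 1.10, Sf3b2 at -0.79, Sf3b1 at -0.80, Sf3a1 at -0.94, Hnrnpul1 at -0.998 and Sf3b3 at -1.42, with adjusted p between 0.255 and 0.267. Without dKO replicate 1, 4 members passed as higher and 5 as lower, where 5.29% and 12.4% of all genes did.

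Other splicing genes were taken from 3 lists that hold no member. Between dKO and WT, 21.9% of all genes rose and 26.5% fell. Of 64 other snRNP and spliceosome genes, 25 rose, 14 fell and 25 did not pass, with a median of 0.26. Those with the smallest p were Snrnp200, the helicase that unwinds U4 from U6, at -2.75, Ppil1, a prolyl isomerase of the spliceosome, at 1.65, Prpf8, the large scaffold of the U5 particle, at -1.65, and Aqr, a helicase of the intron-binding complex, at -1.77. With the transcript length trend removed, 17 of the 64 rose and 5 fell (15.6% and 13.9% of all genes), with a median of 0.19. Prpf8 was then at -0.04 (adjusted p = 0.878) and Snrnp200 at -1.22 (adjusted p = 0.00399). Ppil1 was at 0.58 (adjusted p = 0.0121) and Aqr at -0.81 (adjusted p = 0.0159). Of 23 tested LSm and snRNP assembly genes, 14 rose and 2 fell (21.9% and 26.5% of all genes), with a median of 1.25. Among them Smn1, which loads Sm rings onto RNA, was at 1.503, Clns1a, the chaperone pICln of Sm proteins, at 1.25, Gemin8 at 1.29 and Gemin5, the large subunit that recognises snRNA, at -2.07. After the transcript length trend was removed, 5 of the 23 rose and 0 fell (15.6% and 13.9% of all genes), with a median of 0.30. Clns1a was then at 1.19 (adjusted p = 0.00381) and Smn1 at 0.24 (adjusted p = 0.465). Gemin8 was at 0.51 (adjusted p = 0.112) and Gemin5 at -0.57 (adjusted p = 0.153). Of 41 tested regulators, 6 rose and 7 fell (21.9% and 26.5% of all genes), with a median of -0.17. After the trend was removed 15 rose and 2 fell (15.6% and 13.9% of all genes), with a median of 0.39. The regulators with the smallest p as deposited were Mbnl1 at -1.53, Tnpo3, which imports SR proteins into the nucleus, at -1.46, Celf1 at -1.21 and Pcbp2 at 0.88. With the trend removed, Celf1 turned to 0.22 (adjusted p = 0.4996) and Pcbp2 was at 0.87 (adjusted p = 0.00936). Mbnl1 was at -0.71 (adjusted p = 0.0214) and Tnpo3 at -0.77 (adjusted p = 0.0383). In the single knockouts and in the interaction 0 genes of these lists were called.

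Markers of other cell types differed between dKO and WT libraries, and some also between single knockout and WT libraries. Their part in the results above was not tested. The marker signals are given as deposited, with no length trend removed, and the part of that trend in them was not tested. Of all genes tested, 27.9% lay wholly above WT in dKO and 30.5% wholly below. Cd3e, which defines T cells, was at 0 in every library. The T cell genes Cd3g and Trac were at 0 in every dKO library and at most 5.33 in any other. The sum of the T and NK cell list, nearly all Nkg7, was 7361 to 49423 in dKO and 3418 to 4565 in WT. It was 3635 to 5416 in Tet2 KO and 4357 to 6588 in Traf6 KO. Summed over its 4 genes, the mast cell and basophil list reached 5701 to 9678 in dKO, 1277 to 1759 in Tet2 KO, 3367 to 8523 in Traf6 KO and 1305 to 1990.3 in WT. The macrophage and dendritic cell list, 3 of whose 4 genes are in the table, reached 1759.5 to 5229 in dKO and 460.4 to 556 in WT. Most of it was Cd68, with C1qa at 7.51 to 245 in dKO. The list reached 420 to 497 in Tet2 KO and 682 to 987 in Traf6 KO. The sums of dKO and WT libraries did not overlap for B cell markers either (1721 to 7694 in dKO, 996 to 1545 in WT, nearly all Cd79b) nor for erythroid markers (796 to 1331 in dKO, 229.6 to 417 in WT). B cell sums were 1064 to 1457 in Tet2 KO and 1156 to 1607 in Traf6 KO. Erythroid sums were 677 to 6479 in Tet2 KO, reaching above dKO, and 154 to 805 in Traf6 KO. Sums of dKO and WT overlapped for mature neutrophil markers (509 to 4354 in dKO, 570.1 to 1929.99 in WT) and megakaryocyte markers (5932 to 10054 in dKO, 8532 to 9966 in WT). Megakaryocyte sums were below WT in Tet2 KO, at 4713 to 5603, and above it in Traf6 KO, at 14342 to 17809. Neutrophil sums were 261 to 392 in Tet2 KO and 1150 to 2213 in Traf6 KO. The summed LSK list of 8 genes stood at 84100 to 108855 in dKO and 133931 to 153912 in WT. It stood at 119574 to 160607 in Tet2 KO and 117225 to 148198 in Traf6 KO. Its genes did not move together. Kit, Mecom, Hlf, Meis1 and Gata2 lay lower in every dKO library than in any WT library. Cd34 (40877 to 59383 in dKO, 37782 to 52709 in WT), Flt3 (11767.5 to 19755 and 10044 to 14503) and Ly6a overlapped WT. Myc signal was 27733, 28914 and 19627 in dKO, 18726, 23839.5 and 23186 in Tet2 KO, 11543, 17426 and 21305 in Traf6 KO and 18778, 19732 and 19670.5 in WT, and its change in dKO against WT, 0.37 on the log2 scale, did not pass the test (adjusted p = 0.214).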

How the data were processed

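The authors deposited a gene by library table whose values are a normalised signal, whole reads divided by a size factor for each library; alignment with STAR, counting with featureCounts, DESeq2, bcl2fastq and the builds GRCm38 and mm10 are listed, without versions, in the submitters' processing notes. Counting settings and strand setting are not given in the sources used here, and the SMART-Seq kit named in the labels' protocols does not mark strand, so sense and antisense reads cannot be told apart. Dividing by the smallest value of a library gave whole reads for 100% of values (tolerance 1e-06), with 0.518 to 1.79 signal units per read and 22169673 to 53921402 reads per library.

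The members, role groups and other lists were chosen with earlier results of these data known. Genes that reached a signal of 10 in 3 or more libraries were tested with limma 3.58.1 in R 4.3.3 (trend and robust variance) on log2(signal + 1) over all 12 libraries, with Benjamini-Hochberg adjustment over all 14045 genes and a threshold of 0.05; a fold change on this scale understates the change of low genes. Alternatives were edgeR 4.0.16 (quasi-likelihood) and DESeq2 1.42.0 on the recovered reads, a pseudocount of 5, no filter, equal library totals, the replicate number as a block, the compared groups alone, each library left out, and removal in each library of a loess trend (span 0.3) on the longest transcript length and GC content. Removal with coding length was added after seeing the data, because the longest transcript of some members far exceeds their coding transcript. Non-overlap counts without the libraries labelled replicate 1 of Tet2 KO and Traf6 KO were added after seeing the data as well. The genes named are every member past the threshold, or the 6 largest rises and falls where more than 12 passed, the most abundant member of each role per kilobase, Srsf2, Sf3b1 and Hnrnpa1, and of each other list the 4 genes with the smallest p in dKO against WT. Genes named outside that rule, such as Hnrnpm, were named after their values were seen.

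Same-numbered libraries of different groups did not deviate together: 3 of 18 such pairs had a correlation of deviations over 0.1 (range -0.177 to 0.193), so replicate numbers were taken as names only. Pairs of replicates differed beyond counting noise, with a chi-square per degree of freedom of 18.45 to 559.6, and none was counted as a duplicate. The fits were tested on simulated data.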

Additional observations from a re-analysis of the deposited data

How the results depend on the processing

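In dKO against WT, edgeR called 23 members higher and 5 lower, where 22.1% and 24.5% of all genes were called. DESeq2 called 22 and 5 (26.9% and 26.3% of all genes), and the replicate block gave 22 and 5 (21% and 25.8%). These groups fitted alone gave 18 and 4 (14.7% and 21.4%). Equal library totals gave 17 and 5 (16.3% and 29.7% of all genes). They moved the median of all genes to -0.34, against -0.09 as deposited. Removal of the length and GC trend gave 14 higher and 1 lower, where 15.6% and 13.9% of all genes were called. The same was found with dKO replicate 3 left out (14.5% and 11.5%). With the replicate block 15 and 1 were called (15% and 13.3%), and with coding length 15 and 1 (18.7% and 17.1%). Leaving out each library in turn gave 16 to 24 higher and 4 to 8 lower. Of all genes, 14.1% to 25.6% were then called higher and 19.6% to 30% lower. Sf3b1 turned to 0.16 on the log2 scale after that removal, 0.16 with the block, 0.090 without dKO replicate 3 and 0.69 with coding length; Srsf2 turned to -0.13, -0.13, -0.00719 and -0.16 in the same settings. Sf3b2 turned to 0.48 with coding length, and Srsf7 to -0.014 and Srsf9 to -0.051 after the removal without dKO replicate 3.

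In dKO against Tet2 KO, the replicate block gave 20 higher and 4 lower, where 14.2% and 18.8% of all genes were called. The trend removal gave 8 and 1 (8.99% and 7.32% of all genes), and 9 and 0 with the block (8.37% and 6.63%). It gave 5 and 0 without dKO replicate 3 (6.45% and 4.63%), and 6 and 0 with coding length (10.2% and 10.2%). The groups fitted alone gave 0 and 0 (0.114% and 0.057% of all genes). The fit without both libraries labelled replicate 1 of Tet2 KO and Traf6 KO also gave 0 and 0 (0.189% and 0.218%). Leaving out each library gave 0 to 21 higher and 0 to 7 lower, where 1.49% to 21.8% and 4.77% to 26.4% of all genes were called. Sf3b1 turned to 0.22 and Sf3b2 to 0.26 with coding length.

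In dKO against Traf6 KO, the replicate block gave 18 higher and 5 lower, where 15.2% and 19.8% of all genes were called. No filter gave 8 higher (6.45% of all genes). The trend removal gave 5 and 2 (10.4% and 9.14% of all genes), and 8 and 2 with the block (9.94% and 8.77%). It gave 4 and 0 without dKO replicate 3 (7.58% and 6.46%), and 4 and 0 with coding length (11.7% and 12.1%). The groups fitted alone gave 0 and 0 (0.555% and 6.35% of all genes). Without both libraries labelled replicate 1, 0 and 1 were called (2.01% and 10.6%). Leaving out each library gave 0 to 23 higher and 1 to 8 lower, where 3.11% to 23.5% and 11.7% to 26.3% of all genes were called. After the trend removal, alone and with the block, Sf3a3 turned to -0.073 and Sf3b1 to 0.064; without dKO replicate 3 Sf3b1 was at 0.000955, and with coding length Sf3b1 was at 0.49 and Sf3b2 at 0.22.

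The interaction gave 0 to 4 higher and 0 to 5 lower when each library was left out. Of all genes, 0.0359% to 5.29% were then higher and 0.0646% to 12.4% lower. Neither single knockout gave a call among the members against WT in any setting run, where at most 1.84% of all genes were called in a direction. The cause of these shifts was not tested. Srsf12 and Snrpn have the lowest signal and the widest intervals of the members, and at 29.1, 112 and 5.77 in WT Srsf12 also varies strongly within a group.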
